A study of Mus musculus with 10 samples.

Results

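Photoreceptors detect light in the outer segment, a modified cilium packed with stacked membrane discs. Tetraspanin proteins hold the highly curved disc rims in shape, cadherin-like and prominin proteins act where new discs form at the base, and microtubule-associated proteins line the ciliary axoneme and the connecting cilium that carries cargo from the cell body. Mutations in genes for these parts are known causes of inherited photoreceptor degeneration.

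The genes described here are Prph2, Rom1, Cdhr1, Prom1, Rp1, Rp1l1 and Fam161a, chosen by name, with every CUT&Tag peak that the deposited annotation assigned to them. They held 62 of the 108253 peaks measured. These were 16 peaks of Rp1, 14 of Prom1, 14 of Rp1l1, 7 of Cdhr1, 6 of Fam161a and 5 of Prph2, while Rom1 had 0, so 6 of the 7 genes had at least 1 peak. By position, 7 of the peaks were annotated as promoters, 38 as introns, 9 as exons or 5′ UTR and 8 as intergenic.

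The libraries came from neural retinas of C57Bl/6J mice at postnatal day 28, cultured as explants without the retinal pigment epithelium for 48 h in medium with 5 mM or 25 mM glucose. CUT&Tag, in which an antibody directs an enzyme to cut DNA beside a modified histone, was run on 500000 dissociated cells per library for lactylated lysine 18 of histone H3 (H3K18La, 3 libraries per glucose level) and for acetylated lysine 27 (H3K27Ac, 2 libraries per glucose level). The study used these explants to ask whether the supply of glucose changes histone lactylation. All retinas shared strain, age and culture time, and the sample titles name no batch. The methods call the replicates biological without saying which libraries came from separate animals, so the p-values measure only the spread between these libraries.

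Values are RPKM, the reads in a peak scaled to the width of the peak and to the total reads of the library. The peaks match in number the set that the methods merged from H3K18La peaks of intact retinas at several ages, so H3K27Ac was measured at places found by H3K18La. The protocol in the labels lists an antibody to H3K9me3, a repressive mark, where the titles and the methods give H3K27Ac. In the libraries named H3K27Ac the median level at 25 mM was 7.79 RPKM in promoter peaks and 1.68 in the others. The library totals behind the values ranged from 1358008 to 7424470 reads. The share of those reads that fell in peaks itself differed with glucose. It was 11.9% ± 0.0965 (SD, n = 3) at 5 mM and 32.6% ± 2.08 (n = 3) at 25 mM for H3K18La, and 26.3% ± 7.35 (n = 2) and 63.0% ± 9.19 (n = 2) for H3K27Ac. How far this difference accounts for the changes given below was not tested, and the totals over all member peaks are also given under a scaling that removes it.

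The DNA behind 6 of the regions is shown first, as the plus or minus strand of GRCm38.p6 in RefSeq, with motif matches in capitals. The motifs searched on both strands were the core of the CRX site (TAATC, or GATTA on the other strand), the NRL core (TGCTGA, or TCAGCA) and the GC box (GGGCGG, or CCGCCC). CRX and NRL are transcription factors of photoreceptors. A first set of 3 stretches lies before gene starts, where the promoter peaks described below were measured: the 231 bases before the annotated start of Prph2 (chr17:46910228-46910458, plus strand), the 250 bases before that of Cdhr1 (chr14:37098348-37098597, minus strand), and the 195 bases between the opposed starts of Rom1 and Eml3 (chr19:8929357-8929551, minus strand). The second set is the central 300 bases of the strongest non-promoter peak of 3 genes, shown for Prph2 as the strongest of all member peaks and for Rp1 and Rp1l1 as the genes whose marks are followed along the locus below: Prph2 (chr17:46915022-46915321, plus strand), Rp1 (chr1:4383521-4383820, plus strand) and Rp1l1 (chr14:64019855-64020154, plus strand).
Prph2 promoter: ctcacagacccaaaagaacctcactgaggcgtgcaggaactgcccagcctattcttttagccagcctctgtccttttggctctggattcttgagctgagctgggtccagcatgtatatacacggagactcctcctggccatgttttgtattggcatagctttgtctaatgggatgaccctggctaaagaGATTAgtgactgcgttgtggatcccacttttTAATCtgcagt
Cdhr1 promoter: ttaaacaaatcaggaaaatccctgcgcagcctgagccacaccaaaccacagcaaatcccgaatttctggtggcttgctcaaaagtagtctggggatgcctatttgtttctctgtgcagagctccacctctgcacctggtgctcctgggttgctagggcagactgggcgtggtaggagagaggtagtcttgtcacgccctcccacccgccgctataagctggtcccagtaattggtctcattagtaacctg
Rom1 to Eml3 interval: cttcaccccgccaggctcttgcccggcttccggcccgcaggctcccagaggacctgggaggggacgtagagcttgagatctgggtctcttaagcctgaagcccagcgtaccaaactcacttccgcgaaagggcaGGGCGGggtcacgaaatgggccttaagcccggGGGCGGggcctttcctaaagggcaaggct
Prph2 intron: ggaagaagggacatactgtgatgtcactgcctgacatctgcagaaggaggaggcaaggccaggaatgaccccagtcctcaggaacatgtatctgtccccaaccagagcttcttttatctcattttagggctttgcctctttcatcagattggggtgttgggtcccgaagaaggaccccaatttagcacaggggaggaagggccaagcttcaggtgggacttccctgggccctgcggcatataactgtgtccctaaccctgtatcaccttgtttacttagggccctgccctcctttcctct
Rp1 intron: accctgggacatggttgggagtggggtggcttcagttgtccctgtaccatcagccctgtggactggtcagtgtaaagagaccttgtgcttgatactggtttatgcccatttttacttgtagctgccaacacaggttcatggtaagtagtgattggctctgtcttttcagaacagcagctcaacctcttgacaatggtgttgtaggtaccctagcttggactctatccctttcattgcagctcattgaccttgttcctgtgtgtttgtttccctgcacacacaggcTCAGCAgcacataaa
Rp1l1 intron: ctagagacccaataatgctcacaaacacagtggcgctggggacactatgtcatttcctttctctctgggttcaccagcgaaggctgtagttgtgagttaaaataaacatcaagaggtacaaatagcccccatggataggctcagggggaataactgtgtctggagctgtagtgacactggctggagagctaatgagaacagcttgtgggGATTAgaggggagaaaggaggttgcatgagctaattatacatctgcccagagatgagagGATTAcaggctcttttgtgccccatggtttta

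The Prph2 promoter window held 2 CRX cores, while the Cdhr1 window held no match to any of the 3 motifs and the Rom1 to Eml3 interval held 2 GC boxes. Among 32851 promoter windows of 250 bases in RefSeq, 19.8% held a CRX core, 16.1% an NRL core and 32.7% a GC box. In the intron peaks, the Rp1l1 stretch held 2 CRX cores, the Rp1 stretch 1 NRL core and the Prph2 stretch none of the 3 motifs. Over the central 300 bases of all 62 member peaks, a CRX core occurred in 19 (30.6%, against 27.9% of all peaks), an NRL core in 20 (32.3% against 24.8%) and a GC box in 2 (3.23% against 11.8%). The median GC content was 50.7% in the members and 50.0% in all peaks. The table of promoter sequences used had no entry for Rp1 or Rp1l1. A match is only an occurrence of these letters.

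H3K18La was higher at 25 mM than at 5 mM glucose at most peaks of the outer segment genes. Of 62 member peaks, 47 passed the test as higher at 25 mM and 0 as lower (limma, Benjamini-Hochberg adjustment over all peaks, threshold 0.05), against 25.9% called higher among all peaks. The median change of the members was 1.92 on the log2(RPKM + 0.5) scale, with a range of -0.56 to 3.58, and that of all peaks was 0.76. In retinas measured whole, fewer photoreceptors and less of a mark per photoreceptor cannot be told apart. In 49 of the 62 peaks the 3 libraries at 25 mM all lay above the 3 at 5 mM, which held for 36.6% of all peaks. With values scaled to the reads in peaks of each library, 0 member peaks passed in limma, 29 had an unadjusted p under 0.05, and the members' median change was 0.75 beside -0.05 for all peaks.

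H3K27Ac moved in the same direction with fewer calls. Of the 62 peaks, 22 passed as higher at 25 mM and 0 as lower, against 4.13% called higher among all peaks, with a median change of 1.53 against 0.58. The range was -1.19 to 2.86. In 57 of the 62 peaks both libraries at 25 mM lay above both at 5 mM, which held for 53% of all peaks. The count of 22 calls rested on single libraries and settings. It fell to 0 without either library at 25 mM, without H3K27Ac replicate 1 at 5 mM, without H3K18La replicate 2 at 5 mM, or without H3K18La replicate 2 or 3 at 25 mM, and also when values were scaled to reads in peaks (median change 0.33), whereas a voom fit to the reads gave 48 higher and 1 lower.

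The members were strong peaks, with a median RPKM over the 10 libraries of 7.90 against 1.54 for all peaks, and calls were more frequent in stronger classes of the whole table. The classes rest on the mean over all 10 libraries, so a peak that is high at 25 mM is moved into a higher class by that value itself, and the shares are no level-independent background. Of all peaks whose mean level reached 10 RPKM, 95.4% were called higher at 25 mM for H3K18La and 50.7% for H3K27Ac, and of the 28 members in that class 28 and 19 were called. The median changes in that class were 2.09 in the members and 1.90 in all peaks for H3K18La, and 1.97 and 1.53 for H3K27Ac. Between 5 and 10 the shares were 73.6% and 14.2% of all peaks, with 11 and 3 of 12 members called. In the range from 1 to 5 they were 24.7% and 0.740%, with 7 and 0 of 17 members. Below 1 they were 2.67% and 0.0251%, with 1 and 0 of 5 members. In each mark 2 member peaks had 0 reads in a whole glucose group, and the medians above were the same with those peaks set to the bound that 3 reads over the group allows.

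**Figure D1:**
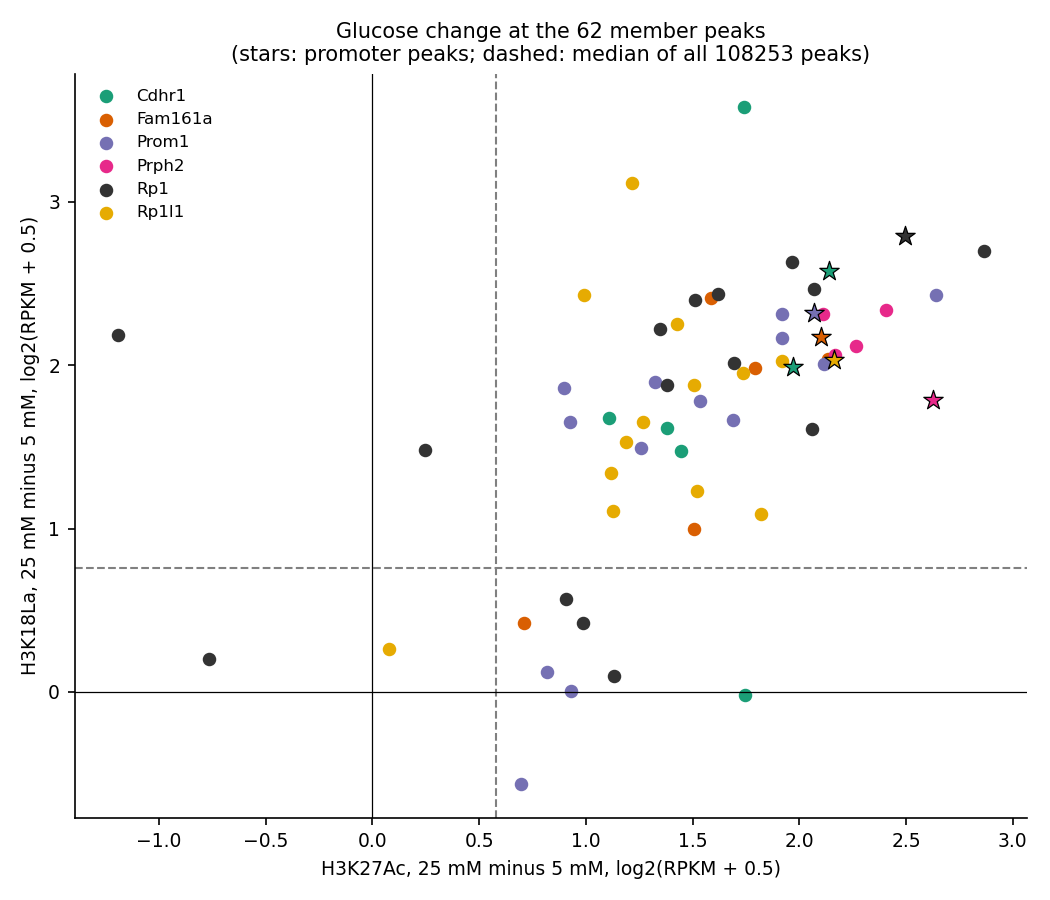
Change from 5 to 25 mM glucose at each of the 62 member peaks, H3K27Ac on the horizontal and H3K18La on the vertical axis, both on the log2(RPKM + 0.5) scale, with stars for promoter peaks and dashed lines at the medians of all peaks (0.58 and 0.76). The 7 promoter peaks lie well to the upper right of both dashed lines, and 2 Rp1 peaks lie left of 0 on the H3K27Ac axis.

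Prph2 encodes peripherin 2, a tetraspanin of the disc rim. Its promoter peak spans chr17:46909555-46912785 and covers the first stretch of sequence above. H3K18La there measured 1.17, 1.07 and 2.28 RPKM in the 3 libraries at 5 mM and 9.29, 5.79 and 4.38 at 25 mM. The lowest value at 25 mM was above the highest at 5 mM, and the change was 1.79 ± 0.38 (SE) on the log2 scale with an adjusted p of 0.00306. For H3K27Ac the libraries gave 4.15 and 6.98 RPKM at 5 mM and 48.1 and 26.8 at 25 mM. These groups did not overlap either, with a change of 2.63 ± 0.47 and an adjusted p of 0.0341. Prph2 was the one gene of the set in which all its peaks, 5 of 5, were called higher at 25 mM for both marks. These 5 peaks were all strong, with means of 11.0 to 24.3 RPKM over the 10 libraries. Of all peaks with a mean of at least 10 RPKM, 95.4% were called higher for H3K18La and 50.7% for H3K27Ac.

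The intron peak of Prph2 at chr17:46914896-46915447, centred 4.71 kb inside the gene, had the highest mean level of the 62 peaks, 24.3 RPKM. For H3K18La it measured 8.59, 1.75 and 1.33 RPKM at 5 mM and 31.3, 14.3 and 9.77 at 25 mM. Replicate 1 was the highest library in both groups, and the lowest library at 25 mM was still above the highest at 5 mM. The change was 2.34 ± 0.53 with an adjusted p of 0.00457. H3K27Ac measured 9.22 and 18.1 RPKM at 5 mM and 96.7 and 51.7 at 25 mM, a change of 2.41 ± 0.65 with an adjusted p of 0.0491. Here too the groups were apart. The other 3 Prph2 peaks, in an intron, in an exon and 6.28 kb before the start, changed by 2.06 to 2.31 for H3K18La and by 2.11 to 2.27 for H3K27Ac.

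Rom1 encodes the tetraspanin that pairs with peripherin 2 at the rim, and no row of the table carried its symbol. Its annotated start, at position 8929356 on the minus strand of chromosome 19, lies within a peak assigned to Eml3, whose start is on the opposite strand (chr19:8928488-8930459). That peak is not a member, and reads over it cannot be divided between the 2 genes. Its H3K18La was 2.64, 1.17 and 1.12 RPKM at 5 mM and 5.93, 2.87 and 3.25 at 25 mM. The groups did not overlap, but the change of 1.08 ± 0.40 missed the threshold (adjusted p = 0.0591), and it was -0.11 when scaled to reads in peaks. H3K27Ac was 6.92 and 14.0 RPKM at 5 mM and 66.5 and 34.4 at 25 mM, a change of 2.22 ± 0.50 with an adjusted p of 0.0352. At 25 mM this peak therefore held 4.02 RPKM of H3K18La beside 50.4 of H3K27Ac. The test of whether the marks changed by different amounts gave a difference of -1.13 ± 0.64 and an adjusted p of 0.971.

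Cdhr1 encodes a protocadherin found where new discs grow at the base of the outer segment. Its main promoter peak, chr14:37097930-37098629, had the highest level of the promoter peaks. H3K18La measured 2.03, 4.41 and 3.16 RPKM at 5 mM and 27.6, 17.2 and 18.8 at 25 mM. The groups were far apart, and the change was 2.57 ± 0.35 with an adjusted p of 0.000311. The H3K27Ac libraries read 10.2 and 20.2 RPKM at 5 mM and 88.4 and 48.1 at 25 mM. The change was 2.14 ± 0.43 with an adjusted p of 0.0341.

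A second Cdhr1 promoter peak, chr14:37099292-37099640, is centred 1.12 kb before the start. H3K18La in it rose from 5.43, 2.76 and 2.11 RPKM to 13.1, 14.1 and 15.5, a change of 1.99 ± 0.35 (adjusted p = 0.000952), and H3K27Ac from 4.64 and 9.69 to 31.5 and 24.7, a change of 1.97 ± 0.43 (adjusted p = 0.0344). This was the peak among the promoters in which the marks came closest at 25 mM, as given below. The intron peak at chr14:37096669-37097007 showed the largest H3K18La change of the 62 peaks, but from very few reads. Its 5 mM libraries held 0, 4 and 0 reads (0, 2.28 and 0 RPKM), and those at 25 mM measured 10.5, 10.9 and 8.95 RPKM. The change was 3.58 ± 0.52 with an adjusted p of 0.000357, and the ratio of pooled reads, scaled to library totals, was 7.45, with a 95% counting interval of 2.63 to 29.1. H3K27Ac in it was 7.50 and 12.3 RPKM at 5 mM and 37.3 and 29.8 at 25 mM, and missed the threshold (1.74 ± 0.63, adjusted p = 0.115). Of the 7 Cdhr1 peaks, 6 were called higher for H3K18La and 2 for H3K27Ac.

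Prom1 encodes prominin 1, a membrane protein of the evaginating disc edge. Its promoter peak is chr5:44100411-44102303. H3K18La measured 3.01, 1.83 and 1.56 RPKM at 5 mM and 17.2, 11.6 and 9.26 at 25 mM. Each library at 25 mM was above each at 5 mM, and the change was 2.32 ± 0.34 with an adjusted p of 0.000365. H3K27Ac measured 8.92 and 13.0 RPKM at 5 mM and 59.9 and 36.6 at 25 mM, a change of 2.07 ± 0.41 with an adjusted p of 0.0341. The strongest of its 13 other peaks, an intron peak 16.0 kb inside the gene (chr5:44085549-44086566), read 2.79, 2.84 and 3.62 RPKM of H3K18La at 5 mM and 24.0, 14.3 and 14.9 at 25 mM. H3K27Ac in this peak was 9.77 and 16.4 RPKM at 5 mM and 56.1 and 43.5 at 25 mM. Both marks rose there, by 2.31 ± 0.30 (adjusted p = 0.000307) and 1.92 ± 0.37 (adjusted p = 0.0341). Of the 14 Prom1 peaks, 10 were called higher for H3K18La and 5 for H3K27Ac. The 3 peaks farthest into the gene, 70.6 to 103 kb from its start, did not pass for either mark (limma; 0 of 3 with an unadjusted p under 0.05) and measured 0.550 to 1.75 RPKM of H3K18La at 25 mM.

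Rp1 encodes a doublecortin-family protein that binds the microtubules of the axoneme. Its promoter peak, chr1:4360251-4360892, sits at the start of a shorter transcript, 48.9 kb inside the outermost annotated start of the gene. H3K18La at 5 mM rested on 3, 3 and 0 reads, or 2.22, 0.902 and 0 RPKM, while the libraries at 25 mM measured 16.6, 5.36 and 5.78 RPKM. The groups did not overlap. The change was 2.79 ± 0.56 with an adjusted p of 0.00202, and the ratio of pooled reads, scaled to library totals, was 7.37, with a 95% counting interval of 3.14 to 21.1. H3K27Ac was 3.96 and 5.27 RPKM at 5 mM and 43.5 and 18.04 at 25 mM, and its change of 2.49 ± 0.68 just missed the threshold (adjusted p = 0.0504). It was the one promoter peak of the 7 not called for H3K27Ac.

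The strongest Rp1 peak was an intron peak centred 25.6 kb inside the gene (chr1:4383310-4384031). Its H3K18La was 1.97, 2.67 and 4.08 RPKM at 5 mM and 36.6, 15.3 and 14.0 at 25 mM, the highest single H3K18La reading among the strongest non-promoter peaks of the 6 genes. The H3K27Ac libraries gave 9.29 and 16.7 RPKM at 5 mM and 67.4 and 37.3 at 25 mM. The groups of both marks were apart, with changes of 2.63 ± 0.39 (adjusted p = 0.000392) and 1.96 ± 0.48 (adjusted p = 0.0386). In all, 11 of the 16 Rp1 peaks were called higher for H3K18La and 4 for H3K27Ac. The 5 peaks more than 60 kb inside the gene were weak, with 0.509 to 1.89 RPKM of H3K18La at 25 mM, and 0 of them passed for either mark in limma (1 of the 5 had an unadjusted p under 0.05 for H3K18La and 0 for H3K27Ac).

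Rp1l1 encodes a relative of Rp1 that also sits on the axoneme. Its promoter peak is chr14:63991726-63993935. H3K18La measured 3.86, 2.88 and 2.33 RPKM at 5 mM and 17.7, 10.1 and 14.2 at 25 mM. The groups did not overlap, and the change was 2.03 ± 0.32 with an adjusted p of 0.000515. H3K27Ac measured 7.53 and 12.4 RPKM at 5 mM and 55.9 and 36.4 at 25 mM, a change of 2.16 ± 0.39 with an adjusted p of 0.0341. The strongest intron peak, 27.5 kb inside the gene (chr14:64018986-64021023, with its centre shown above), went from 4.89, 2.93 and 3.97 RPKM of H3K18La to 20.7, 14.8 and 14.2. Its H3K27Ac went from 9.08 and 14.7 RPKM to 45.2 and 35.0. These changes were 1.95 ± 0.30 (adjusted p = 0.000442) and 1.74 ± 0.37 (adjusted p = 0.0341). Of the 14 peaks of the gene, 11 were called higher for H3K18La and 3 for H3K27Ac.

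Fam161a encodes a microtubule-binding protein of the connecting cilium. Its promoter peak is chr11:23007425-23008681. H3K18La measured 1.13, 1.53 and 1.17 RPKM at 5 mM, the narrowest spread of the 6 main promoters, and 11.7, 5.09 and 6.97 at 25 mM. The groups were apart, with a change of 2.17 ± 0.39 and an adjusted p of 0.00096. H3K27Ac measured 6.07 and 15.8 RPKM at 5 mM and 53.4 and 35.9 at 25 mM, a change of 2.10 ± 0.47 with an adjusted p of 0.0352. In the intron peak 3.38 kb inside the gene (chr11:23010719-23011101), H3K18La went from 1.24, 3.02 and 3.85 RPKM to 13.3, 7.71 and 15.8, and H3K27Ac from 8.45 and 18.1 to 70.4 and 44.7. The changes were 2.04 ± 0.40 (adjusted p = 0.00177) and 2.13 ± 0.49 (adjusted p = 0.0357). Of its 6 peaks, 4 were called higher for H3K18La and 3 for H3K27Ac.

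**Figure D2:**
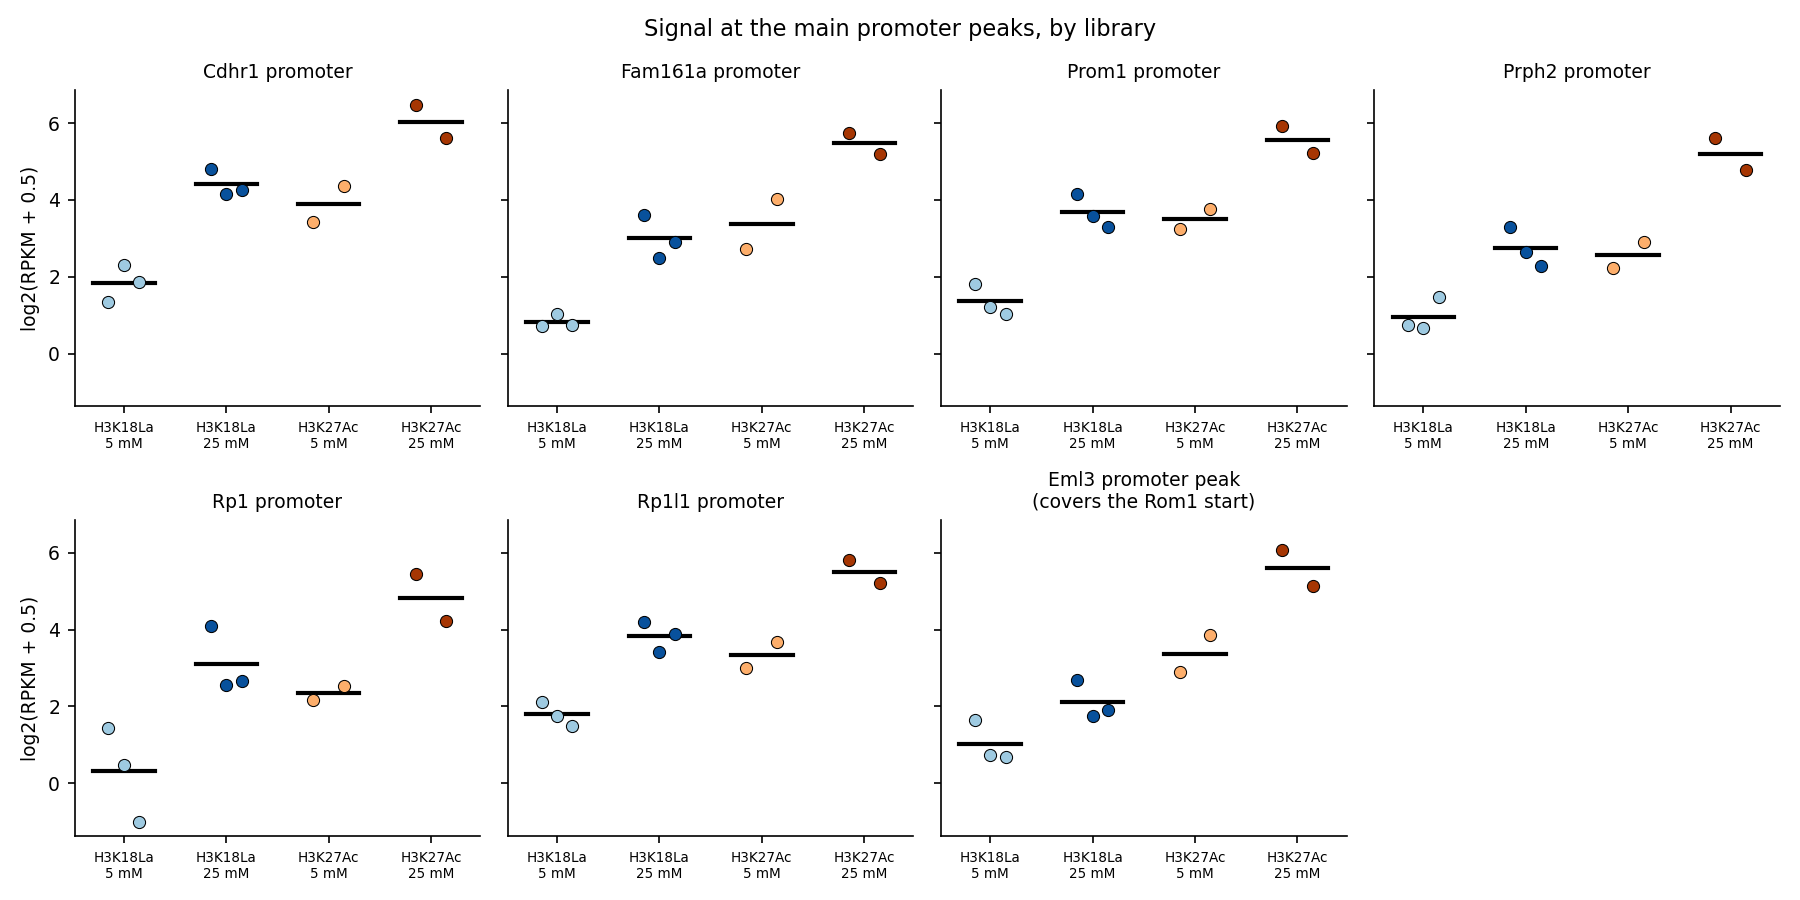
Signal in each library at the main promoter peak of the 6 genes with a promoter peak and at the Eml3 promoter peak that covers the start of Rom1, as log2(RPKM + 0.5), with black lines at the group means. In every panel the 25 mM libraries of a mark lie above its 5 mM libraries, and the H3K18La step is smallest in the Eml3 panel (1.08, and -0.11 when scaled to reads in peaks).

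All 7 promoter peaks of the genes were called higher for H3K18La and 6 for H3K27Ac, beside 30.1% and 9.26% of all promoter peaks. Of the 55 other peaks 40 and 16 were called, beside 25.1% and 3.17% of all non-promoter peaks. The medians were 2.17 and 2.14 for the promoter peaks and 1.88 and 1.50 for the others. By position, 28 of 38 intron peaks, 6 of 9 exon or 5′ UTR peaks and 6 of 8 intergenic peaks were called for H3K18La, and 12, 2 and 2 for H3K27Ac.

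Summing reads over all peaks of a gene gave 1 level per gene and library. For H3K18La the summed level at 5 mM was 1.86 ± 0.592 RPKM (SD, n = 3) for Prph2, 1.82 ± 0.409 for Cdhr1, 1.86 ± 0.146 for Prom1, 1.35 ± 0.296 for Rp1, 2.20 ± 0.276 for Rp1l1 and 1.53 ± 0.203 for Fam161a. At 25 mM it was 9.01 ± 3.43 for Prph2, 9.00 ± 1.50 for Rp1l1, 8.48 ± 1.69 for Prom1, 8.42 ± 1.19 for Cdhr1, 7.58 ± 1.34 for Rp1 and 7.53 ± 1.59 for Fam161a. No 2 neighbours in the order at 25 mM differed by more than 1 SD. At 5 mM the 3 Rp1l1 libraries (2.50, 1.97 and 2.12) lay above all those of Rp1 (1.47, 1.57 and 1.02) and Fam161a (1.67, 1.62 and 1.30). The ratio of the means was largest for Rp1 (5.60) and smallest for Rp1l1 (4.09), with 4.56 to 4.93 for the other 4. The median ratio over all genes with peaks was 2.03, with an interquartile range of 1.33 to 2.96.

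For H3K27Ac the summed level at 25 mM followed a wider order. It was 40.5 ± 14.5 RPKM (SD, n = 2) for Prph2, 33.4 ± 6.48 for Fam161a, 26.7 ± 6.25 for Prom1, 26.7 ± 6.13 for Cdhr1, 22.4 ± 2.71 for Rp1l1 and 10.9 ± 3.64 for Rp1. The 2 Rp1 values, 13.5 and 8.36, lay below every library of the other 5 genes, while the other neighbours overlapped. At 5 mM Rp1 was also lowest, at 2.85 ± 1.23 against 7.34 to 9.56 for the others. The ratio of the means was 5.51 for Prph2 and 3.02 to 3.84 for the other 5, with a median of 1.87 over all genes (interquartile range 1.22 to 2.60).

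In all 6 genes and both marks, each library at 25 mM lay above each at 5 mM, which held for 46.6% of genes for H3K18La and 65.6% for H3K27Ac. Each gene had the smallest p that an exact two-sided permutation of the glucose labels can give here, 0.1 for 3 against 3 libraries and 0.333 for 2 against 2, so neither can reach 0.05. When scaled to the reads in peaks of each library, the ratios were 1.49 to 2.04 for H3K18La and 1.29 to 2.30 for H3K27Ac, and the H3K18La groups of Prph2 overlapped.

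**Figure D3:**
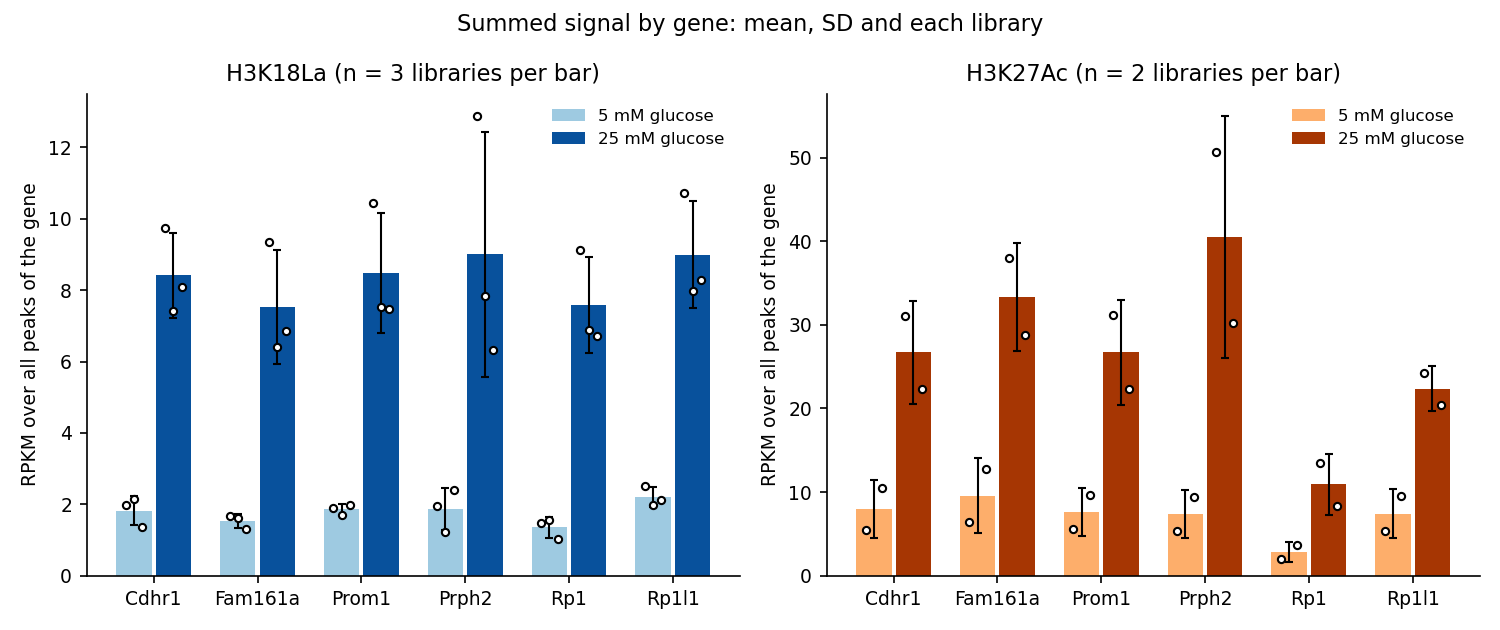
Summed RPKM over all peaks of each gene, with bars for the mean, error bars for the SD and points for each library, for H3K18La (3 libraries per bar) and H3K27Ac (2 per bar). H3K18La means at 25 mM lie near each other in the 6 genes (7.53 to 9.01), while H3K27Ac is lowest at Rp1 (10.9) and highest at Prph2 (40.5).

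Next to each other, the marks differed in level at most peaks. At 25 mM, H3K18La passed as lower than H3K27Ac at 33 of the 62 member peaks, against 15.5% of all peaks, and as higher at 1, against 1.02%. At 5 mM it passed as lower at 40, against 17.2%, and as higher at 0, against 0.224% (limma; 2 had an unadjusted p under 0.05 in that direction). By sign alone H3K18La was lower at 53 and higher at 9 member peaks at 25 mM, and lower at 57 and higher at 5 at 5 mM. The medians of H3K18La minus H3K27Ac were -1.53 and -1.73 on the log2 scale, beside -0.30 and -0.54 for all peaks. These are RPKM from 2 antibodies. In all peaks whose mean level reached 10 RPKM the medians were -1.28 and -1.67, and for the 28 members in that class -1.71 and -1.96. The mean that sets this class includes H3K27Ac itself, so a high H3K27Ac level can bring a peak into it. With values scaled to reads in peaks 4 peaks passed at 25 mM, 3 as lower and 1 as higher in H3K18La, and 6 passed at 5 mM, 4 as lower and 2 as higher. Without H3K27Ac replicate 1 at 25 mM or replicate 2 at 5 mM the counts were 3 and 1.

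By gene, H3K18La passed as the lower mark at 25 mM in 5 of 5 peaks of Prph2, 4 of 7 of Cdhr1, 10 of 14 of Prom1, 2 of 16 of Rp1, 7 of 14 of Rp1l1 and 5 of 6 of Fam161a. At the main promoters the difference ranged from -2.47 ± 0.43 at Fam161a (adjusted p = 0.00106) and -2.44 at Prph2 (adjusted p = 0.00106), through -1.89 at Prom1 (adjusted p = 0.00245) and -1.69 at Rp1l1 (adjusted p = 0.0039), to -1.63 ± 0.39 at Cdhr1 (adjusted p = 0.0083). The Rp1 promoter, at -1.74, missed the threshold (adjusted p = 0.0708), as did the second Cdhr1 promoter peak, at -0.95 (adjusted p = 0.122). The Eml3 peak over the Rom1 start had a larger difference, -3.48 ± 0.45 (adjusted p = 0.000306). Over the main promoter peaks of all genes the median difference at 25 mM was -1.67. The ratio of summed H3K18La to summed H3K27Ac at 25 mM was 0.693 at Rp1, 0.402 at Rp1l1 and 0.223 to 0.317 at the other 4 genes.

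Whether glucose changed the marks by different amounts was tested as an interaction over all 10 libraries. No member peak passed (0 of 62 by limma, and 0% of all peaks), the smallest adjusted p was 0.971, and 4 had an unadjusted p under 0.05. The voom fit called 0 as well, with 3 under 0.05. The members' median difference of changes was 0.22, next to 0.20 for all peaks. At the Prph2 promoter, where the H3K27Ac change was larger, the difference was -0.84 ± 0.60. Among the 4 was a 5′ UTR peak of Rp1l1 (chr14:64021635-64022823), in which H3K18La went from 0.797, 2.76 and 0.619 RPKM to 15.4, 12.4 and 14.5 while H3K27Ac went from 8.56 and 16.8 to 31.0 and 26.3. This peak had a difference of 1.90 ± 0.62 in favour of H3K18La. The others were the Cdhr1 intron peak with 4 reads at 5 mM (1.84), an Rp1l1 intron peak (1.44) and an intergenic Rp1 peak with few reads (3.38).

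The difference between the marks at 25 mM varied along Rp1 and Rp1l1. The split into stretches given here was made after the values had been seen, so it is described and not tested. At Rp1, the 6 peaks within 20 kb of the outermost start measured 2.24 to 10.2 RPKM of H3K18La and 0 to 10.3 of H3K27Ac at 25 mM. H3K18La was the higher mark by sign in 5 of these 6, with a median difference of 0.66, and 1 of them, the outermost, passed as higher. The 5 peaks 20 to 60 kb inside the gene, which include the promoter peak of the shorter transcript, measured 4.53 to 22.0 RPKM of H3K18La and 19.4 to 52.4 of H3K27Ac. H3K18La was the lower mark in all 5, with a median difference of -1.74, and 2 of them passed. The H3K18La ranges of these stretches overlapped, while the H3K27Ac ranges did not. In the 5 weak peaks more than 60 kb inside, H3K18La was 0.509 to 1.89 RPKM and H3K27Ac 0.590 to 3.24, with a median difference of -0.46 and H3K18La higher by sign in 2.

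At Rp1l1 the 10 peaks inside the gene had H3K18La of 3.52 to 16.6 RPKM and H3K27Ac of 8.75 to 46.1 at 25 mM. Their median difference was -1.34, H3K18La was lower by sign in all 10, and 7 passed. The 4 peaks past the annotated gene end measured 1.12 to 7.80 RPKM and 0.875 to 10.8, with a median difference of 0.06. The single member peak called higher in H3K18La than in H3K27Ac at 25 mM lay 17.8 kb before the outermost start of Rp1 (chr1:4426780-4427315). It rested on 2, 5 and 4 reads of H3K18La and 0 and 0 of H3K27Ac.

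**Figure D4:**
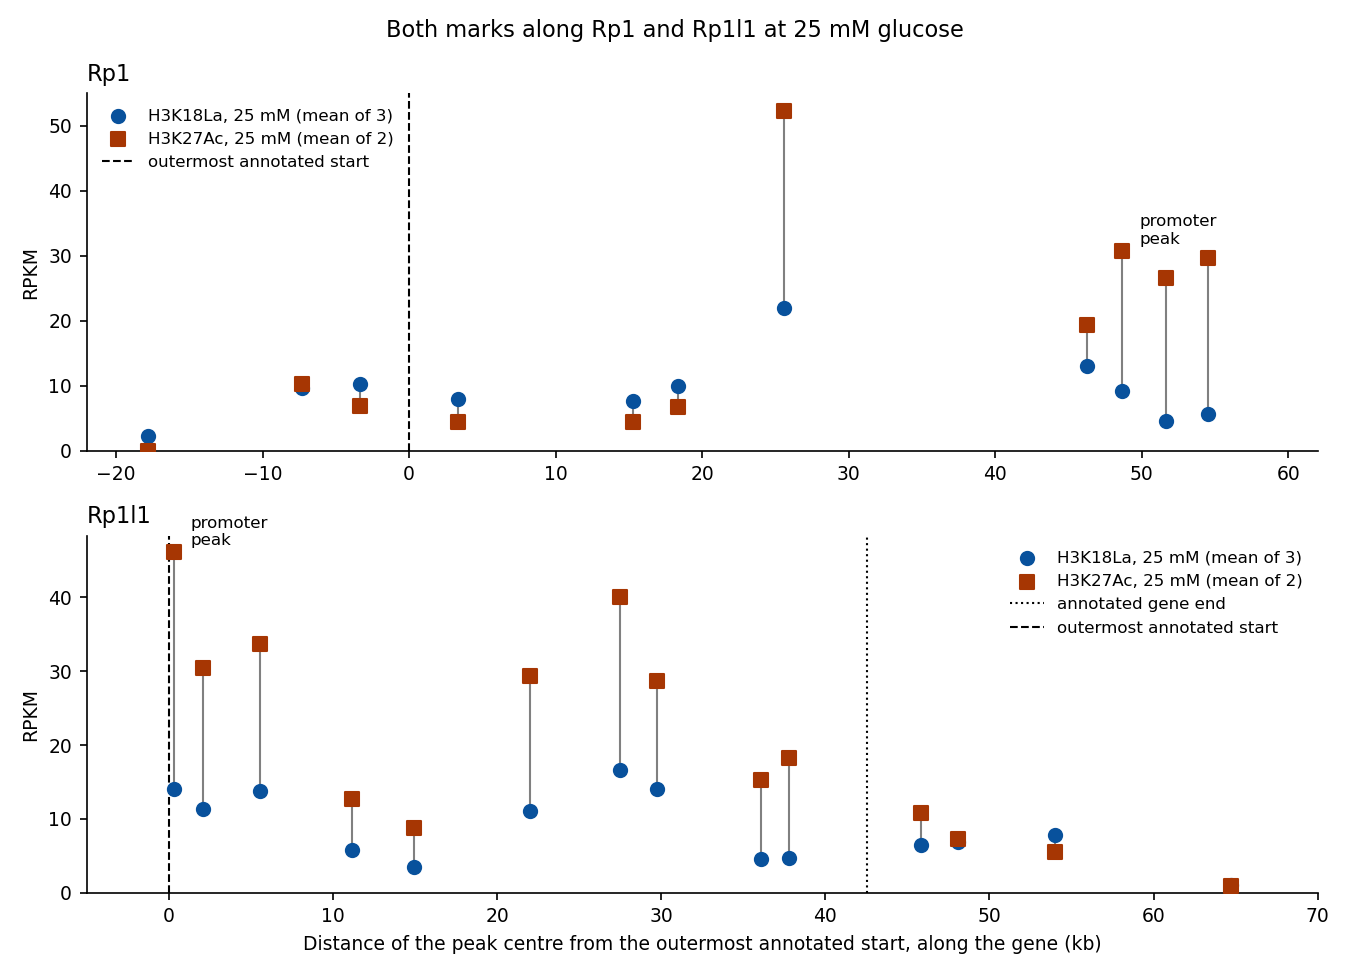
Mean RPKM of H3K18La (circles, 3 libraries) and H3K27Ac (squares, 2 libraries) at 25 mM glucose against the distance of each peak's centre from the outermost annotated start, in kb along the gene, for Rp1 (peaks up to 60 kb inside) and Rp1l1. Near the outermost Rp1 start and past the Rp1l1 gene end the marks lie closer together (median differences of 0.66 and 0.06) than at the plotted peaks farther inside Rp1 and within Rp1l1 (-1.74 and -1.34), and the 5 weak Rp1 peaks beyond 60 kb (-0.46) are not drawn.

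The direction of the members' median held under each scaling tried, while its size and the calls did not. Centring each library on the median of all peaks left 33 of 62 member peaks called for H3K18La, with a median change of 1.29 beside 0.13 for all peaks, and 0 for H3K27Ac (limma; 35 with an unadjusted p under 0.05), with 1.09 beside 0.14. Centring on the weakest decile of peaks gave 46 and 0 (44 under 0.05). Scaling to reads in peaks gave 0 and 0 (29 and 10 under 0.05), with 49 and 47 of the 62 changes above 0. The members' median change was above that of all peaks for both marks under each of these scalings, which were not matched for the level of the peaks.

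**Figure D5:**
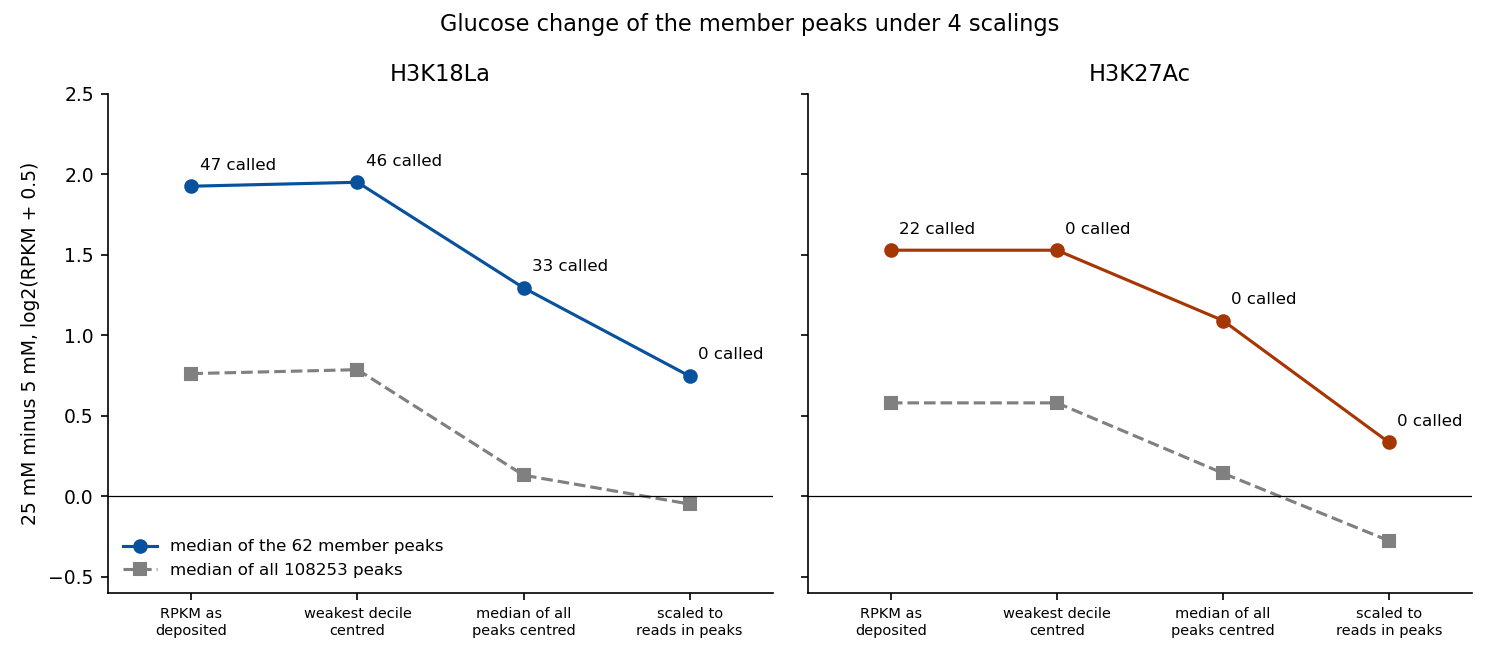
Median change from 5 to 25 mM glucose on the log2(RPKM + 0.5) scale under 4 scalings, for the 62 member peaks (circles) and all 108253 peaks (squares), with the number of member peaks called. The members' median falls from 1.92 to 0.75 for H3K18La and from 1.53 to 0.33 for H3K27Ac as the scaling takes out the difference in reads in peaks, and stays above that of all peaks.

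The main promoter peaks of 25 other genes of the outer segment, its discs and axoneme gave a background for the members. For H3K18La 20 of the 25 were called higher, 0 lower and 5 did not pass, with a median change of 1.65. For H3K27Ac 15 were called higher, 0 lower and 10 did not pass, with a median of 1.74. Among the 3 largest H3K18La changes were those of Unc119, a carrier of lipidated proteins (2.69 ± 0.40, from 1.41 to 13.4 RPKM, adjusted p = 0.000391) and Guca1a, an activator of guanylate cyclase (2.27 ± 0.40, from 1.03 to 6.84 RPKM, adjusted p = 0.000932). The smallest were those of Pde6d, a carrier of prenylated proteins (-0.03 ± 0.43, adjusted p = 0.978), Cep290, a connecting cilium protein (0.34 ± 0.38, adjusted p = 0.544), and Tmem30a, a flippase subunit (0.44 ± 0.54, adjusted p = 0.587). H3K27Ac at these 3 changed by 1.34 (adjusted p = 0.144), 1.94 (adjusted p = 0.037) and 1.95 (adjusted p = 0.0958). The 5 genes whose promoter profile over the 10 libraries was most like the members' mean, among 997 promoters of at least the lowest member's level, were Gm47160, Gm45883, Slc38a3, Anp32a and A830052D11Rik, with Pearson's r of 0.996 to 0.998, and the median r of all 997 was 0.954. All of these share the same 10 libraries.

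Markers of the retinal cell types were measured at their main promoter peaks. Rod markers had a peak in 7 of 7 genes, 7 were called higher at 25 mM for H3K18La and 6 for H3K27Ac, and their summed H3K18La ranged from 11.7 to 15.3 RPKM at 5 mM and from 56.0 to 138 at 25 mM. The members' 6 main promoters summed to 10.5 to 13.4 and 55.1 to 100.2 RPKM in the same libraries. These sums grow with the number of promoters in a list. Per promoter, mean H3K18La at 5 and 25 mM was 2.03 and 11.9 RPKM for the members and 1.85 and 12.8 for the rod markers. Cone markers had 5 of 6 with a peak and 3 called for H3K18La, summed from 6.40 to 9.01 and from 24.5 to 32.7 RPKM. Of the Müller glia, bipolar, amacrine and ganglion cell lists, 4 of 5, 4 of 5, 3 of 4 and 2 of 5 had a peak, and 1, 0, 1 and 0 were called for H3K18La in limma (1, 0, 1 and 0 with an unadjusted p under 0.05). Their summed H3K18La at 5 mM was 2.57 to 5.65, 1.66 to 2.93, 3.08 to 3.57 and 0.524 to 2.42 RPKM. At 25 mM it was 6.77 to 11.0, 2.25 to 3.47, 7.21 to 10.7 and 1.11 to 1.96 RPKM. For H3K27Ac 1 cone and 1 bipolar marker were called, against 0 in the other 3 lists (limma). With an unadjusted p under 0.05 there were 3 of 5 cone, 3 of 4 bipolar, 1 of 4 Müller glia, 1 of 3 amacrine and 0 of 2 ganglion cell markers, all higher at 25 mM. The bipolar markers had a median H3K27Ac change of 1.64 (1.34 to 2.80), beside 2.15 (2.07 to 2.63) for the members' 6 main promoters. Summed H3K27Ac of the bipolar markers ranged from 3.92 to 5.71 RPKM at 5 mM and from 17.3 to 30.6 at 25 mM. The median H3K27Ac changes of the rod, cone, Müller glia, amacrine and ganglion cell markers were 2.11, 1.13, 1.03, 1.05 and 0.10. Markers of the retinal pigment epithelium had a peak in 1 of 5 (Best1, at 1.23 to 2.04 RPKM of H3K18La at 25 mM), with no promoter peak at Rpe65, Ttr, Tyr or Lrat. Microglial markers had a peak in 1 of 4. Neither was called for either mark in limma (1 microglial marker had an unadjusted p under 0.05 for H3K18La). The peak set matches 1 merged from intact retinas, so a missing peak cannot show which cells the explants held. The part of cell composition in the members' change was not tested.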

How the data were processed

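CUT&Tag signal was measured in 10 libraries of mouse retinal explants, with H3K18La in 3 and H3K27Ac in 2 libraries at each glucose level. Paired-end reads had been mapped by the authors (nf-core/cutandrun, build GRCm38), who called peaks with MACS, left out blacklisted regions, merged the peaks, quantified them with csaw using windows of 10000 bases for normalisation, and annotated them with ChIPseeker 1.34.1, in which a promoter spans -1000 to 500 bases around a start site. The deposited table holds RPKM values per peak and library. Whether the window normalisation entered the library totals is not given in the sources used here. The number of peaks equals that of the H3K18La consensus set merged over developmental ages in the methods, so explant and H3K27Ac peaks did not define it. The protocol in the labels names a protein A-MNase enzyme and an H3K9me3 antibody, where the methods name a Tn5 transposase and an H3K27Ac antibody. A deposited table of the authors' own H3K18La comparison (edgeR 3.40.2 fold changes and p-values) was not used.

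In all libraries 100% of RPKM values times peak width were whole multiples of 1 read, within 0.01 read, which gave the reads behind each value and the totals (1358008 to 7424470). At the lower totals 1 read is a large step, and all counting intervals (95%, exact) cover counting error only.

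Changes were tested on log2(RPKM + 0.5) with limma 3.58.1 (trend, robust moderation) in R 4.3.3, in 1 model of 4 groups over all 10 libraries and all 108253 peaks, p-values being adjusted by Benjamini-Hochberg across the whole table and called under 0.05. Fold changes on this scale understate the change of weak peaks. Summed locus levels were compared with exact two-sided permutation tests, and the counting intervals were exact binomial intervals (scipy 1.17.1). The fitting script was tested on simulated data. Alternatives were other pseudocounts (0.1 and 1), a filter at a mean RPKM of 1, other scalings, no robust moderation, each mark alone, voom on the recovered reads, a replicate block and leaving out each library. Distances from gene starts use GENCODE vM21. Promoter windows and genome sequence came from RefSeq, and promoter entries were matched by symbol for 5 of the 7 genes.

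The text names every member's main promoter peak (highest mean over the libraries) and strongest non-promoter peak, and, of the list of 25 other genes, the 3 highest and 3 lowest H3K18La changes, of which 1 is not reported here. Other peaks given with values were chosen after their values were seen. The members, lists and tests were chosen with earlier results of these data known.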

Additional observations from a re-analysis of the deposited data

Results flagged for a closer look

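An intergenic peak of Rp1, centred 17.8 kb before the outermost start (chr1:4426780-4427315), stood out because the marks moved in opposite directions with glucose. H3K18La held 0, 1 and 0 reads at 5 mM and 2, 5 and 4 at 25 mM, and H3K27Ac held 1 and 3 reads at 5 mM and 0 and 0 at 25 mM. The test of the difference itself gave 3.38 ± 0.78 on the log2(RPKM + 0.5) scale, with an unadjusted p of 0.0005 and an adjusted p of 0.971 in limma, so it did not pass the threshold. With so few reads the fitted value is no bound on the difference, and its cause was not tested.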

How the results depend on the processing

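The H3K18La glucose change passed at 44 to 48 of the 62 member peaks under most settings and at 42 to 49 with each library left out in turn, but at 33 when each library was centred on the median of all peaks and at 0 when scaled to reads in peaks (29 with an unadjusted p under 0.05, limma). The H3K27Ac glucose change passed at 0 peaks with a pseudocount of 0.1, without robust moderation, scaled to reads in peaks, centred on the median or centred on the weakest decile (43, 46, 10, 35 and 44 with an unadjusted p under 0.05), at 42 with each mark fitted alone and at 49 with voom. With single libraries left out it ranged from 0 to 32 (28 to 49 under 0.05). The mark difference at 25 mM passed at 4 peaks when scaled to reads in peaks and 10 when centred on the weakest decile, and at 3 to 40 with single libraries left out, with 3 without H3K27Ac replicate 1 at 25 mM, 20 without replicate 2 and 22 without H3K18La replicate 2. The mark difference at 5 mM passed at 6, at 24 when centred on the median and at 14 on the weakest decile, and at 1 to 39 with single libraries left out. The interaction passed at 0 peaks under every setting run (2 to 5 under 0.05). Of 1397 values at the 17 named peaks, 1125 kept their direction and side of the threshold, 230 fell short of it, 38 passed it anew and 4 reversed, all when scaled to reads in peaks: H3K18La at the Eml3 promoter (-0.11), H3K27Ac at an Rp1l1 intron peak (-0.17) and 5′ UTR peak (-0.027), and the mark difference at 5 mM at the second Cdhr1 promoter peak (0.036). Apart from these constructions, the cause was not tested.

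With the replicate number as a replicate block the counts were 48, 21, 0, 33 and 38 for the 5 tests. The deviations of libraries with the same number correlated by -0.004 to 0.024 within a mark and by -0.027 to 0.134 across marks, the highest for replicate 1 of both marks at 25 mM, and not every pair was above 0.1, so the numbers were not taken to pair the samples. The depth of the H3K18La libraries at 5 mM, where many peaks held few reads, limits the values of weak peaks.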
